A study of Rattus norvegicus with 8 samples.

Results

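The mRNAs of 10 acute phase proteins were followed in rat liver: A2m, Orm1, Hp, Lcn2, Hpx, Crp, Lbp, Cp, Itih3 and Itih4. Every probe set to which the platform annotation gives 1 of these symbols and no other was taken. This gave 12 probe sets, 3 for Cp and 1 for each other gene. Of 31042 probe sets besides controls, 20826 had a single symbol, and these named 14217 genes. The rule reads gene symbols and no signal, and all 12 passed the filter on low signals. Livers of male Sprague-Dawley rats had been hybridized to 8 Affymetrix rat genome arrays, 2 for each of 4 groups. Rats of the Dex group received vehicle by gavage for 3 days and 1 intramuscular injection of 1.5 mg/kg dexamethasone on the third. Rats of the GW3965 group received 50 mg/kg GW3965 by gavage for 3 days and an injection without dexamethasone, rats of the Dex+GW3965 group received both compounds at those doses, and rats of the vehicle group received neither, with livers taken 24 h after the injection. All groups thus went through gavage and injection. The age of the rats was not given in the sources used here. Dexamethasone is a synthetic agonist of the glucocorticoid receptor, and GW3965 is a synthetic agonist of the liver X receptors. The labels give each group a single liver number, with a or b after it, whereas 2 animals a group are stated in the methods, so p-values measure the spread between these arrays, which may be technical. All 8 hepatocyte markers (such as Alb and Cps1) were measured on every array. In whole liver, fewer cells of a type and less RNA per cell cannot be told apart.

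The acute phase response is the change in the plasma proteins that the liver secretes during inflammation or injury. Interleukin-6, acting through STAT3, and interleukin-1, acting through NF-kappaB and C/EBP factors, raise the transcription of these genes in hepatocytes, and glucocorticoids are known to act together with the cytokines on many of them. In the rat, alpha-2-macroglobulin and alpha-1-acid glycoprotein are classical strongly induced members, whereas C-reactive protein, strongly induced in humans, circulates in healthy rats as well.

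RefSeq promoters (build GRCr8) were at hand for 7 of the 10 genes and were searched, over the 250 bases before the annotated start and on both strands, for the letters of 4 binding sequences. The C/EBP letters TTGCNNAA occurred before Orm1, Lcn2, Hpx, Cp and Itih4 (5 of 7 genes) and in 9.22% of 33469 promoters of that length. The STAT3 letters TTCNNNGAA occurred before Itih4 alone among the 7 and in 7.67% of all promoters. The glucocorticoid receptor hexamer TGTTCT occurred before Crp alone and in 17.5% of all promoters. The HNF1 letters GTTAATNAT occurred before none of the 7 and in 0.666% of all promoters. No match overlapped another, and a match is only a description of the letters. A2m, Hp and Lbp are named only. Of the 7, Orm1 had the largest dexamethasone difference, Lcn2 the largest departure from additivity and Crp the only hexamer. Itih4 alone of the 7 was called lower in each of the 3 treated groups than in vehicle livers, by the threshold given below. Hpx, Crp and 1368419_at of Cp averaged lower in all 3 as well. The promoters of Orm1, Lcn2, Itih4 and Crp are therefore shown. They run 5′ to 3′ toward the start at chr5:81788259-81788508 (plus strand) for Orm1, chr3:36081781-36082030 (minus strand) for Lcn2, chr16:6086735-6086984 (plus strand) for Itih4 and chr13:87693812-87694061 (plus strand) for Crp. Capitals mark the C/EBP match in Orm1 (bases -123 to -116 from the start, on the opposite strand) and Lcn2 (-191 to -184), the C/EBP match (-232 to -225) and then the STAT3 match (-89 to -81) in Itih4, and the hexamer in Crp (-130 to -125).
Orm1: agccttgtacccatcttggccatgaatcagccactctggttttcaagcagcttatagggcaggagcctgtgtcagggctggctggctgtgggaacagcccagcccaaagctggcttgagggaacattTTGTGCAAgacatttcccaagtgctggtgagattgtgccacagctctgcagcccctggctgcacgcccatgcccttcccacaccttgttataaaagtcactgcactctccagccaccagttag
Lcn2: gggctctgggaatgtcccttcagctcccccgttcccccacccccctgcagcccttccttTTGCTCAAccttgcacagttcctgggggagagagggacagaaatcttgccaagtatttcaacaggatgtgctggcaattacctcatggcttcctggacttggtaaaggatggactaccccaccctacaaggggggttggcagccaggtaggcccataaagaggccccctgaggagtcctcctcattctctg
Itih4: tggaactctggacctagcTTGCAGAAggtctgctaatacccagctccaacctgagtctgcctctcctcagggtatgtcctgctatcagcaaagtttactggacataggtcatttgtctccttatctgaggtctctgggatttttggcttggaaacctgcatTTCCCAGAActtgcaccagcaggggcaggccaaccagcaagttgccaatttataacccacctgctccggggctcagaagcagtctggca
Crp: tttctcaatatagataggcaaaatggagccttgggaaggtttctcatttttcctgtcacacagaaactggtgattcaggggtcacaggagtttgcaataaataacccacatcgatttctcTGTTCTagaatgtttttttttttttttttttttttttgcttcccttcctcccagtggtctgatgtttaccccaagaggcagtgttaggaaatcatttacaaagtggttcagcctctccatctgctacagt

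Signals are on the log2 scale throughout, so a difference of 1 is a doubling, and calls rest on a limma fit over all 16253 probe sets kept, with a Benjamini-Hochberg adjusted p under 0.05. Signals of different probe sets do not rank the amounts of their mRNAs. In livers given dexamethasone alone, 9 of the 12 probe sets differed from vehicle, 3 higher (A2m, Orm1 and Hp) and 6 lower (Lcn2, Hpx, Crp, Lbp, 1 of Cp and Itih4). Of all probe sets tested, 41.9% were called, 17.2% higher and 24.7% lower. The median size of the difference was 0.153 over the 12, against 0.174 over all probe sets. By this median the members were not above the array as a whole, but a larger share of them was called (9 of 12 against 41.9%). Most members were read near the top of the range, where the median over 225 other probe sets was 0.204, as described below. Only A2m and Orm1, 2 of the 12, differed by more than 1 log2 unit, which 4.28% of all probe sets did.

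A2m, the broad-spectrum protease inhibitor alpha-2-macroglobulin, differed most. Its signal was 11.94 and 11.94 in Dex livers, 8.89 and 8.83 in GW3965 livers, 11.58 and 11.52 in Dex+GW3965 livers, and 8.45 and 8.59 in vehicle livers. The 4 arrays from rats given dexamethasone stood far above the other 4, and no 2 groups overlapped. Dexamethasone alone raised A2m 10.7-fold (log2 difference 3.41 ± 0.049 SE, 95% interval 3.31 to 3.52, adjusted p = 1.4e-18, limma). GW3965 alone raised it 1.27-fold (0.34, adjusted p = 7.5e-05, limma), and both compounds together 8.15-fold (3.03, adjusted p = 6.9e-18, limma). Dex+GW3965 livers were lower than Dex livers by a log2 difference of -0.39 (95% interval -0.49 to -0.28, adjusted p = 1.4e-05, limma). The single differences add to 3.75, and the compounds together gave 3.03, a shortfall of -0.73 ± 0.069 (SE) with an adjusted p of 6.2e-07 for the interaction in limma.

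Orm1 encodes alpha-1-acid glycoprotein, a drug-binding plasma protein. Its signal was 14.35 and 14.33 in Dex livers, 13.20 and 13.19 in GW3965 livers, 14.31 and 14.32 in Dex+GW3965 livers, and 13.09 and 13.19 in vehicle livers. Both dexamethasone groups stood above both others without overlap, while the Dex+GW3965 arrays lay close below the Dex arrays. The ratio to vehicle was 2.30 with dexamethasone (log2 difference 1.20 ± 0.033 SE, adjusted p = 5.9e-15, limma) and 2.27 with both compounds (1.18, adjusted p = 1.1e-14, limma). GW3965 alone gave 0.06 (95% interval -0.01 to 0.13, adjusted p = 0.23, limma), and Dex+GW3965 against Dex gave -0.02 (95% interval -0.09 to 0.05, adjusted p = 0.71). The interaction of Orm1 was -0.08 (95% interval -0.18 to 0.02, adjusted p = 0.24). With quantile normalization of the arrays, its GW3965 difference was 0.13 (adjusted p = 0.0397, limma) and its interaction -0.21 (adjusted p = 0.015). Without array b of the vehicle group these were 0.11 (adjusted p = 0.014) and -0.13 (adjusted p = 0.017), so both calls turned on those choices.

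**Figure D1:**
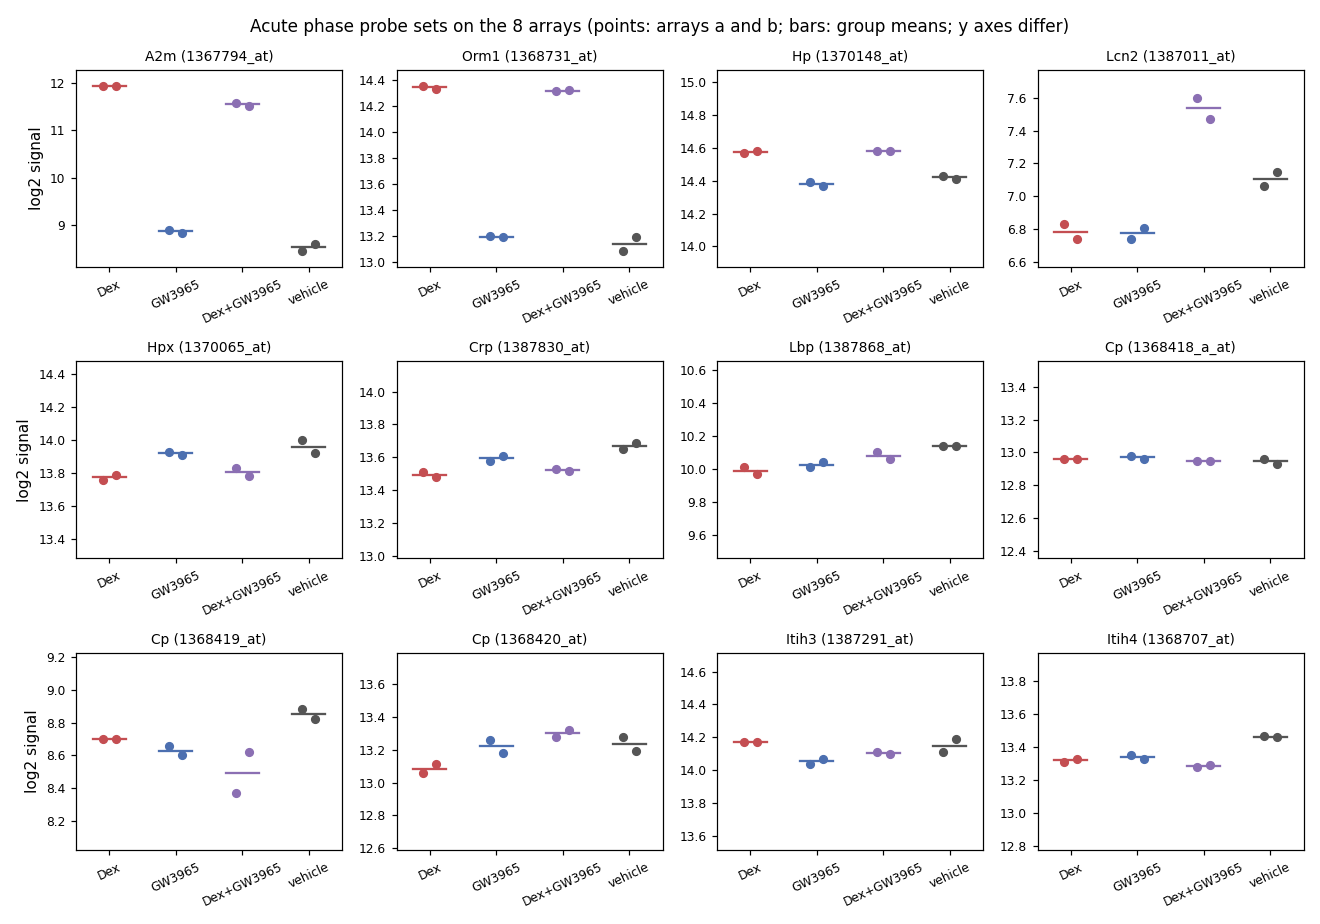
Log2 signal of each member on every array, by group (Dex, GW3965, Dex+GW3965, vehicle); points are arrays and bars are the means of 2 arrays. A2m spans 3.41 log2 units between group means and Lcn2 is highest in Dex+GW3965 livers, whereas most other members differ by little.

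The signals of A2m and Orm1 were set against those of 9819 genes over the 8 arrays, each centred on its own mean. Nearest to A2m were Rgs16, a regulator of G protein signaling (root mean square difference 0.213), the lipid droplet protein Cidea (0.22) and Gpt, alanine aminotransferase (0.387). With GW3965 alone Rgs16 and Cidea differed from vehicle by 0.33 and 0.85, in the direction of A2m (0.34), but Gpt by -0.41. Nearest to Orm1 were Ahcy, which hydrolyses S-adenosylhomocysteine (0.0552), the epoxygenase Cyp2j3 (0.0613) and Prodh, proline dehydrogenase (0.062). The 8 points of each pair share their libraries and groups, so this likeness is only a description.

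Hp encodes haptoglobin, which binds free hemoglobin, and Hpx encodes hemopexin, which binds free heme. Hp was 14.57 and 14.58 in Dex livers, 14.39 and 14.37 in GW3965 livers, 14.58 and 14.58 in Dex+GW3965 livers, and 14.43 and 14.41 in vehicle livers. Dexamethasone raised it by 0.15 (adjusted p = 0.00019, limma) and both compounds by 0.16 (adjusted p = 0.0002), with no overlap with vehicle, and GW3965 alone gave -0.04 (adjusted p = 0.3). Hpx lay the other way, at 13.76 and 13.79 in Dex livers, 13.93 and 13.91 in GW3965 livers, 13.83 and 13.78 in Dex+GW3965 livers, and 14.00 and 13.92 in vehicle livers. It was lower by -0.19 with dexamethasone (adjusted p = 0.00016, limma) and by -0.15 with both compounds (adjusted p = 0.0012), while the GW3965 arrays overlapped those of vehicle. The mRNAs of the 2 proteins that clear hemoglobin and heme thus differed from vehicle in opposite directions in both dexamethasone groups. Each differed by under 0.2 log2 units. With quantile normalization the dexamethasone difference of Hpx was -0.07 (adjusted p = 0.12, limma). Without the intensity trend in the fit, that of Hp had an adjusted p of 0.051, and those of Hp and Hpx with both compounds had 0.055 and 0.078.

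Crp, the pentraxin C-reactive protein, and Lbp, which carries bacterial lipopolysaccharide to CD14, were both lower with dexamethasone. Crp was 13.51 and 13.48 in Dex livers, 13.58 and 13.61 in GW3965 livers, 13.53 and 13.52 in Dex+GW3965 livers, and 13.65 and 13.69 in vehicle livers. All 6 arrays of treated rats were below both vehicle arrays. The differences were -0.17 for Dex (adjusted p = 0.00015, limma), -0.07 for GW3965 (adjusted p = 0.11) and -0.14 for Dex+GW3965 (adjusted p = 0.001). Without the intensity trend the Dex+GW3965 difference of Crp had an adjusted p of 0.078. Lbp was 10.01 and 9.97 in Dex livers, 10.01 and 10.04 in GW3965 livers, 10.10 and 10.06 in Dex+GW3965 livers, and 10.14 and 10.14 in vehicle livers. Dex and GW3965 livers were the lowest and Dex+GW3965 livers lay between them and vehicle. Lbp fell with dexamethasone by 0.15 (adjusted p = 0.0072, limma), a call lost without array b of the Dex group (adjusted p = 0.071), with quantile normalization (adjusted p = 0.07) and without the intensity trend (adjusted p = 0.057). It differed by -0.12 with GW3965 (adjusted p = 0.065) and by -0.06 with both compounds (adjusted p = 0.26).

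Itih3 and Itih4 are heavy chains of the inter-alpha-trypsin inhibitor family, which includes hyaluronan-binding plasma proteins. Itih4 was 13.31 and 13.33 in Dex livers, 13.35 and 13.33 in GW3965 livers, 13.28 and 13.29 in Dex+GW3965 livers, and 13.47 and 13.46 in vehicle livers. All treated groups were below vehicle without overlap, by -0.14 (adjusted p = 0.00081, limma), -0.12 (adjusted p = 0.0072) and -0.18 (adjusted p = 0.00011) in the order just given. The GW3965 call was lost without array b of that group (adjusted p = 0.072), and without the intensity trend the Dex and GW3965 calls were lost (adjusted p = 0.067 and 0.17). Itih3 was 14.17 and 14.17 in Dex livers, 14.04 and 14.07 in GW3965 livers, 14.11 and 14.10 in Dex+GW3965 livers, and 14.11 and 14.19 in vehicle livers. The vehicle arrays of Itih3 spanned the Dex arrays and overlapped the Dex+GW3965 arrays, and only GW3965 differed (-0.10, adjusted p = 0.035, limma), a call that was lost without any 1 of 6 of the 8 arrays (adjusted p = 0.0501 to 0.225), with quantile normalization (0.0558), without the intensity trend (0.29) and with only the arrays compared (0.0935).

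The probe sets of Cp, the copper-carrying ferroxidase ceruloplasmin, disagreed. The brightest, 1368420_at, was 13.06 and 13.11 in Dex livers, 13.26 and 13.18 in GW3965 livers, 13.28 and 13.32 in Dex+GW3965 livers, and 13.28 and 13.19 in vehicle livers. Only the Dex arrays stood apart, lower than vehicle by -0.15 (adjusted p = 0.0042, limma), and not past the threshold without array a of that group (adjusted p = 0.063) or without the intensity trend (adjusted p = 0.098). Probe set 1368419_at was dimmer, at 8.70 and 8.70 in Dex livers, 8.66 and 8.60 in GW3965 livers, 8.37 and 8.62 in Dex+GW3965 livers, and 8.88 and 8.82 in vehicle livers. It was lower in GW3965 livers (-0.22, adjusted p = 0.034, limma) and Dex+GW3965 livers (-0.35, adjusted p = 0.00057), where its 2 arrays lay further apart than those of any other group. The GW3965 call of this probe set was lost with quantile normalization (adjusted p = 0.189, limma), without the filter (0.0621), without the intensity trend (0.128) and without any 1 array of the GW3965 or vehicle groups (0.0529 to 0.225). Probe set 1368418_a_at stayed between 12.93 and 12.98 on all arrays, with differences from vehicle of 0.01 to 0.03 and no call. No direction can therefore be given for Cp as a gene.

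**Figure D2:**
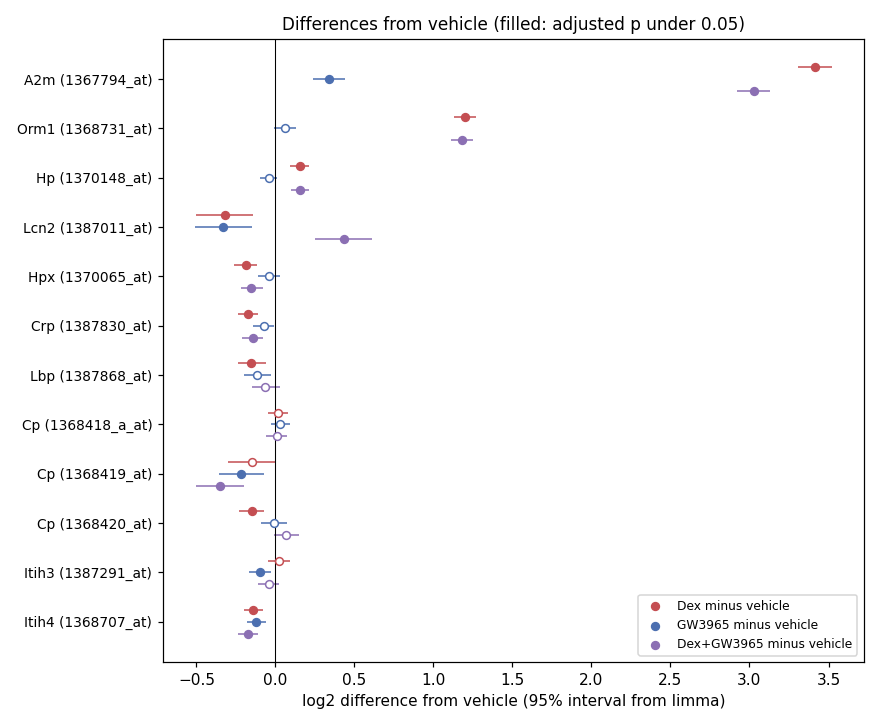
Log2 difference from vehicle of each member probe set for Dex, GW3965 and Dex+GW3965, with 95% intervals from limma. A2m and Orm1 lie beyond 1 in both dexamethasone groups and no member does with GW3965 alone.

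Lcn2 encodes lipocalin 2, which binds bacterial siderophores, and was the only member called lower with each compound alone and higher with both. Its signal was 6.83 and 6.74 in Dex livers, 6.74 and 6.81 in GW3965 livers, 7.60 and 7.47 in Dex+GW3965 livers, and 7.06 and 7.15 in vehicle livers. The Dex+GW3965 arrays were the highest, the vehicle arrays came next, and the single-compound arrays overlapped each other below them. Lcn2 fell by 19.9% with dexamethasone (log2 difference -0.32 ± 0.085 SE, adjusted p = 0.0053, limma) and by 20.5% with GW3965 (-0.33, adjusted p = 0.0098). Both compounds together raised it 1.35-fold (0.43, adjusted p = 0.00051), and Dex+GW3965 livers had 1.69 times the signal of Dex livers (0.75, adjusted p = 3.3e-06). The interaction was 1.08 ± 0.12 (SE, adjusted p = 3.6e-06, limma), and it ran between 1.02 and 1.15 in the alternatives. The dexamethasone call was lost without array b of the Dex group (adjusted p = 0.0506), and the GW3965 call without array b of the vehicle group (adjusted p = 0.069) or array a of the GW3965 group (adjusted p = 0.087).

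Markers of other cell types were set beside Lcn2. Of 12 neutrophil markers only S100a8 and S100a9 were measured. Signals of markers were summed on the linear scale, where the brightest probe sets weigh most, and the log2 of the sum is given. For these 2 it was 5.95 and 5.84 in Dex livers and 5.85 and 5.63 in GW3965 livers. In Dex+GW3965 livers it was 6.39 and 6.36, and in vehicle livers 7.70 and 7.72. The other 10, among them Mpo and Elane, did not pass the filter or had no singly named probe set. S100a8 averaged 4.21 to 4.54 in the treated groups, under the background level of 5.49, the mean array median. S100a9 was under that level in Dex livers (5.35) and GW3965 livers (5.02). For 3 of 5 cholangiocyte markers (Krt19, Epcam and Spp1) the log2 of the sum was 8.22 and 8.19 in Dex livers. It was 8.31 and 8.26 in GW3965 livers, 8.96 and 8.92 in Dex+GW3965 livers, and 8.50 and 8.41 in vehicle livers. Epcam, with a mean of 8.58 in Dex+GW3965 livers, weighed most in it, against 5.18 for Krt19 and 6.15 for Spp1. S100a8 and Krt19 exceeded the array medians only in vehicle livers and passed the filter through that group alone. That these 2 were highest there was thus fixed by the filter, and no conclusion is drawn from it. S100a9 was highest in vehicle livers, and the cholangiocyte sum in Dex+GW3965 livers. The sums for monocytes, stellate cells and sinusoidal endothelial cells were also highest in vehicle livers, although not each of their markers was. Of the 3 cholangiocyte markers only Epcam, an epithelial adhesion protein, was highest where Lcn2 was, with an interaction of 1.15 (adjusted p = 3.5e-07, limma). The keratin Krt19 averaged 5.18 in Dex+GW3965 livers, not above background, against 5.87 in vehicle livers. Its means in Dex and GW3965 livers (4.96 and 5.38) were not above background either. Spp1, osteopontin, averaged 6.15 in Dex+GW3965 livers and 6.19 in GW3965 livers. The part of these cells in the result was not tested.

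With GW3965 alone, 5 of the 12 probe sets differed from vehicle, A2m higher and Lcn2, Itih3, Itih4 and 1368419_at of Cp lower, against 20.5% of all probe sets (5.93% higher and 14.5% lower). The median size was 0.0852, against 0.113 over all. The count of member probe sets was 7 with centred medians, 4 with quantile normalization and 2 without the intensity trend. Of all 16253 probe sets 3664, 2713 and 2222 were called in these fits. The member count was also lower in most fits that left out 1 array. Without such changes to the fit 963 of all probe sets were higher and 2362 lower, and with quantile normalization 1209 were higher and 1504 lower. With both compounds 8 of 12 differed from vehicle, 4 higher (A2m, Orm1, Hp and Lcn2) and 4 lower (Hpx, Crp, Itih4 and 1368419_at of Cp), against 36.8% of all (15.6% higher and 21.2% lower). The median size was 0.154, against 0.153 over all. The 3 comparisons share the vehicle arrays and are not independent of each other.

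Adding GW3965 to dexamethasone gave a called difference in A2m and Lcn2, and in Cp on probe sets that disagreed in direction. Between Dex+GW3965 and Dex livers 4 of 12 probe sets differed, Lcn2 and 1368420_at of Cp (0.22, adjusted p = 0.0004, limma) higher, and A2m and 1368419_at of Cp (-0.20, adjusted p = 0.044) lower, against 22.8% of all probe sets (13.4% higher and 9.38% lower). Without the intensity trend only A2m and Lcn2 were called, 1368420_at of Cp then having an adjusted p of 0.051. The call of 1368419_at was also lost with centred medians, no filter, the replicate block or only the arrays compared (adjusted p = 0.0512 to 0.0789, limma), and without either array of the Dex or GW3965 groups or array a of the Dex+GW3965 group (0.0637 to 0.488). The median size was 0.0497 over the 12 and 0.117 over all. Between Dex+GW3965 and GW3965 livers 5 of 12 differed, against 35.8% of all (19% higher and 16.8% lower). Over all probe sets 3096 were higher and 2729 lower, but with quantile normalization 2827 were higher and 3098 lower. A2m (2.69), Orm1 (1.12), Lcn2 (0.76) and Hp (0.20) were higher and Hpx lower (-0.11, adjusted p = 0.013, limma), the last call being lost without either array of the GW3965 group or array b of the Dex+GW3965 group (adjusted p = 0.0507 to 0.131), with quantile normalization (0.0704), with centred medians (0.0631) and without the intensity trend (0.181). With quantile normalization 7 of 12 were called, Crp (-0.13, adjusted p = 0.0074, limma) and Itih3 (0.10, adjusted p = 0.0402) among them.

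The interaction asks whether both compounds together gave the sum of their single differences. It passed the threshold in 4 of 12 probe sets, against 22.8% of all (15.8% positive and 6.93% negative). A2m was short of the sum, while Lcn2, Lbp and 1368420_at of Cp exceeded it. For Lbp the sum was -0.27 and the joint difference -0.06 (interaction 0.20, adjusted p = 0.02, limma), a call lost with quantile normalization (adjusted p = 0.26), without the intensity trend (adjusted p = 0.11) and without array b of Dex, array a of GW3965 or array a of Dex+GW3965 (adjusted p = 0.072 to 0.085). For 1368420_at of Cp the sum was -0.16 and the joint difference 0.07 (interaction 0.23, adjusted p = 0.0048), lost without the intensity trend (adjusted p = 0.12). Over all probe sets 2571 interactions were positive and 1127 negative, and with quantile normalization 1836 and 1593.

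**Figure D3:**
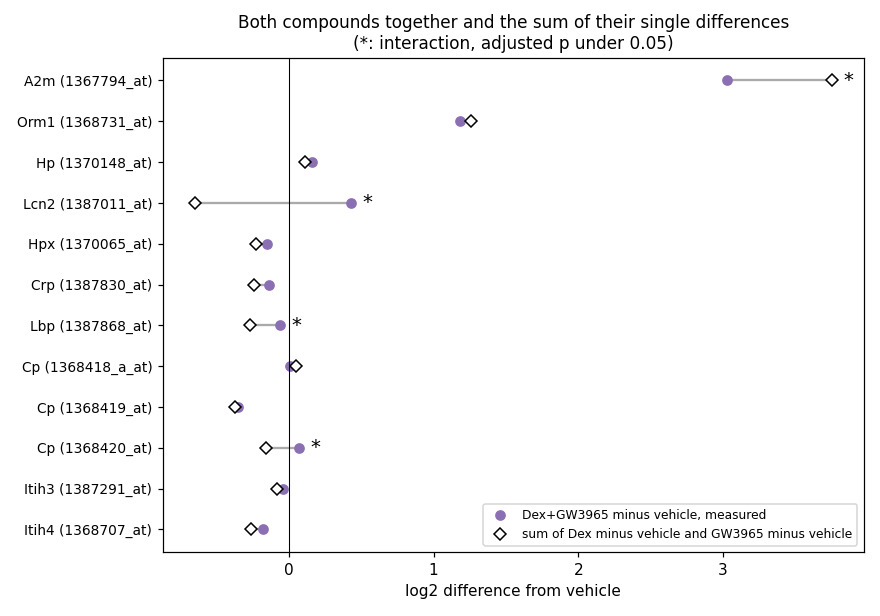
Log2 differences from vehicle (x axis) of each member probe set (1 line each): filled circles are Dex+GW3965 as measured and open diamonds the sum of the Dex and GW3965 differences, with a star where the interaction passed the threshold. For A2m the circle (3.03) lies left of the sum (3.75), and for Lcn2 it lies right of it (0.43 against -0.65).

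Most members were read near the top of the array's range. Signals at or above the 99th percentile of their own array (12.20 to 12.25) were found on all 8 arrays for 8 of the 12 probe sets, from Orm1, Hp, Hpx, Crp, Itih3, Itih4 and 2 of Cp. The other 4, from A2m, Lcn2, Lbp and 1368419_at of Cp, reached it on no array. Hp was closest to the top, 0.309 to 0.548 below the highest signal of each array (14.88 to 14.95), with 3 to 12 brighter probe sets. Orm1 lay 0.554 to 1.85 below it, with only 8 brighter probe sets on the array where it ranked highest. A2m, which differed most, was 2.96 to 6.49 below, and Lcn2 7.31 to 8.20 below.

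Among the 225 other probe sets that stayed at or above the 99th percentile on all arrays, 72.0% were called with dexamethasone, with a median size of 0.204, and their differences ran from -1.20 to 1.30. Only 3 of them passed 1 log2 unit, and Orm1 at 1.20 was near the upper end. With GW3965 32.4% were called, with both compounds 72.0%, between Dex+GW3965 and Dex 36.9%, and in the interaction 38.7%. Between Dex+GW3965 and GW3965 68.9% were called. Of the 8 member probe sets at this height, 6 were called with dexamethasone, 2 with GW3965, 5 with both compounds, 1 between Dex+GW3965 and Dex, 3 between Dex+GW3965 and GW3965, and 1 in the interaction. Whether differences at this height are compressed was not tested.

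**Figure D4:**
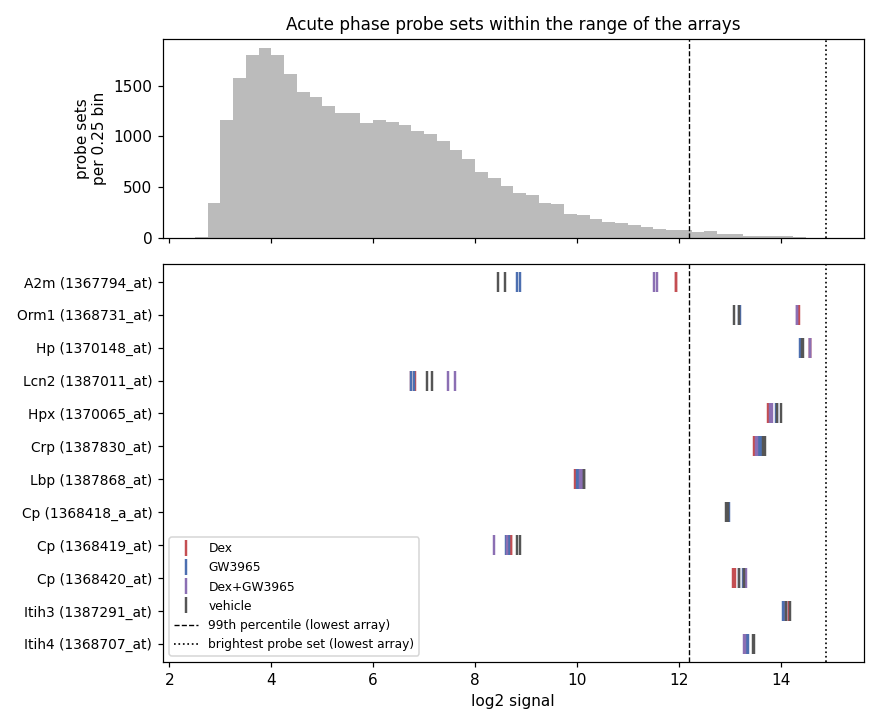
Upper panel, number of probe sets in each 0.25 bin of mean log2 signal (x axis); lower panel, the signal of each member probe set on the 8 arrays (ticks, coloured by group), with the 99th percentile (dashed) and the brightest probe set (dotted) of the array where each was lowest. Of the 12 probe sets, 8 lie above the dashed line on every array, and A2m lies below it in all groups.

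Most other genes of a list of proteins known to rise in the acute phase, mainly plasma proteins, were lower with dexamethasone, unlike A2m and Orm1. Of 26 measured genes of the 36 listed, 3 were higher and 19 lower than in vehicle livers, with a median of -0.217. Of all probe sets tested, 17.2% were higher and 24.7% lower in that comparison. Many genes of the list were read near the top of the range, where 72.0% of 225 probe sets were called with dexamethasone. The 3 were Mt2A, a metallothionein (1.77), the serine protease inhibitor Serpina3n (0.57) and the interleukin-1 receptor antagonist Il1rn (0.41), the last 2 named after their values were seen. Among the lower were the iron hormone hepcidin, Hamp (-1.45), the complement protease C1s (-1.14) and the mannose-binding lectin Mbl2 (-1.09). With both compounds 4 were higher than in vehicle livers, Mt2A (2.43), Serpina3n (0.57), Il1rn (0.31) and the C1 inhibitor Serping1 (0.15), and 14 were lower. With GW3965 alone 1 was higher, Cd14 (1.11, adjusted p = 6.8e-11, limma), the receptor to which Lbp delivers lipopolysaccharide, and 7 were lower, led by Hamp (-0.85). Between Dex+GW3965 and Dex livers 15 were higher, led by C1s (0.80) and Mt2A (0.66), and 2 lower, C4bpb, a chain of the C4b-binding protein (-0.12), and heparin cofactor II, Serpind1 (-0.13), both named after their values were seen. Of all probe sets, 15.6% were higher and 21.2% lower with both compounds, and 5.93% and 14.5% with GW3965. Between Dex+GW3965 and Dex livers these shares were 13.4% and 9.38%.

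**Figure D5:**
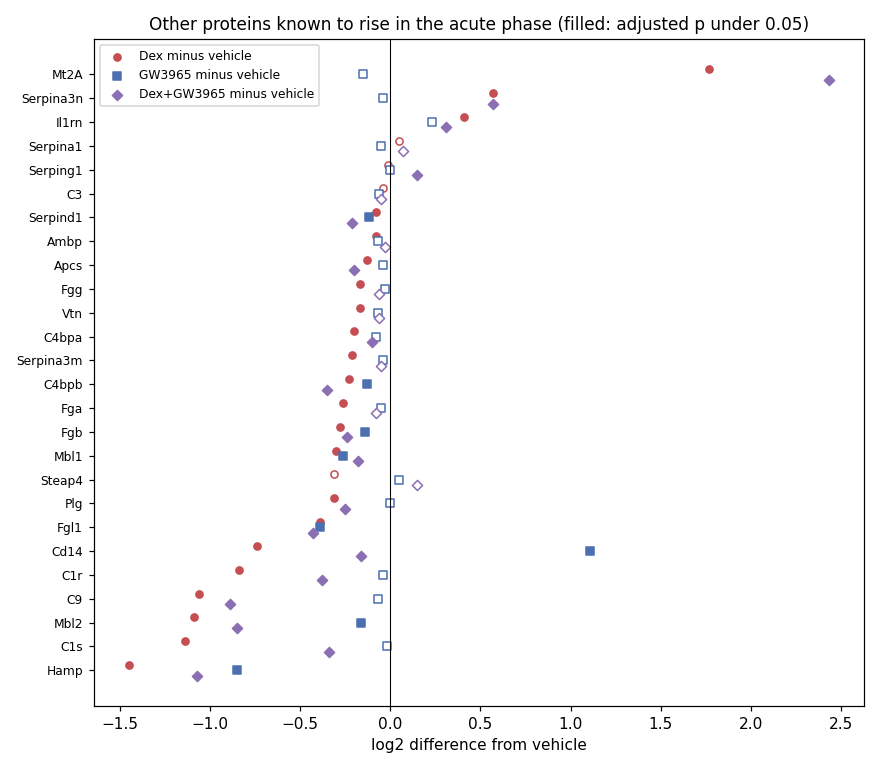
Log2 differences from vehicle (x axis) of the 26 measured genes of the list of other rising acute phase proteins (1 line each), for Dex, GW3965 and Dex+GW3965; filled symbols passed the threshold. With dexamethasone 3 filled points lie above 0 and 19 below it.

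The mRNAs of proteins known to fall in the acute phase, all but the microsomal enzyme Cyp2c11 plasma proteins, were mixed. Of 17 measured of 18, 5 were higher and 8 lower with dexamethasone, led by corticosteroid-binding globulin, Serpina6 (-2.29, adjusted p = 2.8e-18, limma), and Igfals, the acid-labile subunit of circulating growth factor complexes (-1.53). The 5 higher ones, named after their values were seen, were the apolipoproteins Apoa1 (0.50) and Apoa4 (0.15), the retinol carrier Rbp4 (0.11), histidine-rich glycoprotein, Hrg (0.18), and coagulation factor XII, F12 (0.12). Albumin, Alb, differed by 0.02 (adjusted p = 0.71), but its probe set was the brightest of each of the 8 arrays (14.88 to 14.95), at the very top of the measured range, and whether it was saturated was not tested. Itih2, a heavy chain related to Itih3 and Itih4, was at -0.71 in Dex livers and -0.71 in Dex+GW3965 livers. With GW3965 2 were higher, Serpina6 (0.14) and the cytochrome P450 Cyp2c11 (0.09), and 6 lower, led by Apoa4 (-0.44). With both compounds 3 were higher, Apoa1 (0.49), Hrg (0.30) and Rbp4 (0.16), and 7 lower. Of all probe sets, 17.2% were higher and 24.7% lower with dexamethasone. With GW3965 these shares were 5.93% and 14.5%, and with both compounds 15.6% and 21.2%.

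Of 23 measured of 28 genes that carry interleukin-6, interleukin-1 and glucocorticoid signals to these promoters, 9 were higher and 6 lower with dexamethasone. Over all probe sets 17.2% were higher and 24.7% lower. Fkbp5, a chaperone partner of the glucocorticoid receptor and a known target of it, rose by 3.18 with dexamethasone and by 1.78 with both compounds. Tsc22d3, another known target, rose by 1.57 with dexamethasone and by 0.88 with both compounds. The C/EBP factor Cebpb rose by 1.23 with dexamethasone, 0.46 with GW3965 and 0.33 with both compounds, with an interaction of -1.36 (adjusted p = 9.1e-10, limma). The interleukin-6 receptor, Il6r, was at 9.69 and 9.76 in Dex livers, 8.15 and 8.00 in GW3965 livers, 9.23 and 9.07 in Dex+GW3965 livers, and 8.57 and 8.49 in vehicle livers. Like A2m it was highest in Dex livers and next in Dex+GW3965 livers, but unlike A2m it was lower in GW3965 livers than in vehicle livers (-0.45, adjusted p = 7.2e-05). This order of group means was not particular to Il6r. Fkbp5 and Tsc22d3 had it too, as did Il6st, Il1r1 and Nfkbiz, named after their values were seen. The cytokine Il1b was at 5.58 and 5.28 in Dex livers, a mean under the background level of 5.49, against 6.76 and 6.81 in vehicle livers.

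Of 14 measured of 18 genes for partners and receptors of the members, 1 was higher and 8 lower with dexamethasone. Over all probe sets 17.2% were higher and 24.7% lower. The higher gene of the list was Cd163, the macrophage receptor for haptoglobin bound to hemoglobin (0.29, adjusted p = 0.035, limma). Cd14 had the largest difference (-0.74), and Itih2 and Itih1 (-0.38), whose products are assembled with the bikunin chain from Ambp, followed. Slc22a17, a receptor for lipocalin 2, was lower by -0.31 (adjusted p = 0.0064). Signals of 9 of 12 Kupffer cell markers were summed on the linear scale, where the brightest weigh most. The log2 of the sum was 12.09 and 12.08 in Dex livers and 12.67 and 12.67 in GW3965 livers. It was 12.20 and 12.17 in Dex+GW3965 livers and 12.27 and 12.29 in vehicle livers, and so ordered the groups as Cd14 did. Of the summed markers only Cd5l, C1qa and C1qc had group means in that order. Clec4f was higher with both compounds than in vehicle livers (0.26, adjusted p = 0.00023, limma), and Cd163 higher with dexamethasone. Cd68, Csf1r and Adgre1 averaged lower with both compounds than with dexamethasone (-0.01, -0.23 and -0.06), and C1qb averaged lowest in vehicle livers. Adgre1 was under background in both dexamethasone groups. The part of Kupffer cells in the Cd14 differences was not tested.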

How the data were processed

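The authors deposited log2 signals for 31099 probe sets on each of 8 arrays. Per the methods, 5 µg of RNA was labelled for each array, and only probes that mapped correctly to UniGene were used, with signals read from perfect-match probes after MAS-type background subtraction. The submitters' processing notes name MAS5, and the scaling of the arrays was not given in the sources used here. The log2 scale was read from the range of values, 2.497 to 14.95. Array medians of 5.47 to 5.51 were close, so no further normalization was applied. The number of arrays limits the precision.

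Removal of 57 control probe sets left 31042, and 16253 exceeded their array's median on 2 or more arrays and were kept. The platform annotation gave 20826 probe sets 1 symbol, 436 several and 9780 none. Means of the 4 groups were estimated jointly (limma 3.58.1, R 4.3.3; lmFit and eBayes, trend over intensity), leaving 4 residual degrees of freedom, and p-values were adjusted over all kept probe sets (Benjamini-Hochberg, threshold 0.05). The fit was tested on simulated data. The median distance between the arrays of 1 group was 0.0863 to 0.1. A group mean under 5.49, the mean array median, was taken as not above background.

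Every member is named on each of its probe sets. From each wider list, up to 4 genes with the largest changes were named in a comparison, and for members that span over 1 log2 unit the 3 nearest genes. Members and lists were chosen with earlier results of these data known. Alternatives were quantile normalization, centred medians, no filter or a stricter one, no intensity trend, a replicate block, only the arrays compared, the methods' t-test (log ratios to the mean of the other group) and leaving out each array. The cut-off from the z distribution that the methods also name was not applied.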

Additional observations from a re-analysis of the deposited data

Results flagged for a closer look

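For 4 members the difference of Dex+GW3965 from vehicle departed from the sum of the Dex and GW3965 differences by the interaction test in limma: A2m by -0.73, Lcn2 by 1.08, Lbp by 0.20 and probe set 1368420_at of Cp by 0.23, all on the log2 scale. The first 2 kept their call in every alternative that gave an interaction. With 2 arrays a group, single outlying arrays were not tested.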

How the results depend on the processing

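Over the alternatives fitted with limma, 973 of 1068 differences of the 12 probe sets kept their direction and their side of the threshold. Another 55 were no longer past it, 23 passed it newly and 17 changed sign, none of them called before. In these fits A2m kept its call in all 6 comparisons, and so did Orm1 in the 3 where it had 1. With quantile normalization, 6 signs changed: 1368420_at of Cp with GW3965 (0.0488), Hp (-0.0117) and Hpx (-0.0212) between Dex+GW3965 and Dex, 1368418_a_at of Cp with both compounds (-0.00712), and the interactions of Hpx (-0.0135) and 1368419_at of Cp (-0.0879). With centred medians, 1368418_a_at of Cp changed sign between Dex+GW3965 and Dex (0.00393) and between Dex+GW3965 and GW3965 (0.00624). Leaving out 1 array gave -0.0207 to 0.0639 for Itih3 with Dex, -0.0573 to 0.0338 for 1368420_at of Cp with GW3965, -0.00329 to 0.00812 for Hp between Dex+GW3965 and Dex, -0.00766 to 0.021 for 1368418_a_at of Cp with both compounds, -0.00728 to 0.0773 for the interaction of Itih3 and -0.109 to 0.139 for that of 1368419_at of Cp.

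Without the intensity trend, the called member probe sets were 5 with Dex, 2 with GW3965, 5 with both compounds, 2 between Dex+GW3965 and Dex and 2 in the interaction. Of all 16253 probe sets 6344, 2222, 5369, 2711 and 2684 were called in these comparisons. At the methods' threshold, the methods' t-test called 4335 probe sets with Dex, 2818 with GW3965 and 3789 with both compounds. It called 2732 between Dex+GW3965 and Dex and 3741 between Dex+GW3965 and GW3965. Of the member probe sets it called 2 with GW3965 and 5 with both compounds. The methods also name a cut-off from the z distribution, which was not applied here, so these counts are not those of the study. The t-test as run took its spread from the arrays of the first-named group alone. After Benjamini-Hochberg it called 31 probe sets with Dex, 19 with GW3965, 28 with both compounds, 22 between Dex+GW3965 and Dex and 25 between Dex+GW3965 and GW3965, with 0 member probe sets in each, where 6, 2, 5, 3 and 5 had an unadjusted p under 0.05. Of the 6 with Dex, 5 were higher and 1 lower, and of the 3 between Dex+GW3965 and Dex, 0 were higher and 3 lower. Leaving out 1 array gave 1804 to 3243 probe sets, 2 to 5 of them members, with GW3965, and 2376 to 4020 probe sets between Dex+GW3965 and Dex.

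Letters a and b did not pair arrays across groups (correlations of same-letter deviations -0.232 to 0.0831). With the letter as a replicate block, 6618 probe sets, 9 of them members, were called with Dex. Between Dex+GW3965 and Dex 3522 probe sets were called, 3 of them members in place of 4, 1368419_at of Cp being lost. Crossing the letters for Dex+GW3965 against vehicle, chosen after seeing the data, gave 6198 probe sets, 8 of them members. The cause of these shifts was not tested unless named.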
